A study of Mus musculus with 13 samples.

Results

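Expression of 10 genes of the IL-1, TNF and IL-6 cytokine system and of the inflammasome was examined in microglia of PS2APP mice with and without Trem2. The 10 genes are Il1a, Il1b, Il1rn, Il18, Tnf, Il6, Nlrp3, Casp1, Pycard and Gsdmd, chosen by name out of 52636 genes measured, and all 10 passed the expression filter that left 17086 genes for testing. The cells were sorted from the cortex and hippocampus of 7 PS2APP;Trem2wt mice and 6 PS2APP;Trem2ko mice aged 14 to 15 months, with 2 males in the first group and 1 in the second. Every mouse carried the PS2APP transgenes, which encode human presenilin 2 and human APP with familial Alzheimer's disease mutations and lead to β-amyloid plaques. The knock-out mice were homozygous for the Trem2 tm1(KOMP)Vlcg null allele, made on a C57BL/6N background and crossed into PS2APP on C57BL/6J, so the genotypes may also differ in substrain sequence around Trem2 on chromosome 17. Tnf lies on the same chromosome, 13.1 Mb from Trem2. No mice without the PS2APP transgenes were analysed here, so the levels below are levels in an amyloid model and not changes caused by amyloid. The sort kept CD11b+ CD45+ Ccr2- Ly6g- cells, which are mostly microglia with some perivascular macrophages. The labels describe frozen tissue dissociated on ice. The study's methods differ, with live cells gated after dissociation in the cold and no freezing of this tissue mentioned. They also state that animals of the 2 genotypes were generally handled as pairs from perfusion to sorting, and since the labels do not give the pairs, the tests here leave them out.

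IL-1α and IL-1β are ligands of the IL-1 receptor, which signals through MyD88 to NF-κB, and the IL-1 receptor antagonist encoded by Il1rn occupies the same receptor without signalling. IL-1β and IL-18 are made as inactive precursors. NLRP3 is a sensor that recruits the adaptor ASC, the product of Pycard, and ASC recruits caspase-1, which cleaves both precursors and also gasdermin D, the protein that forms the membrane pore of pyroptosis. Microglia are a major source of these proteins in the brain, and mRNA levels do not show whether a precursor was cleaved or released. TREM2 is a lipid receptor of microglia that acts through the adaptor encoded by Tyrobp.

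Promoter sequence is shown for Il1b, Tnf and Il6, the cytokine genes best known as targets of acute induction, since their levels are read below beside genes of the cellular dissociation response. Each sequence is the 250 bases before the RefSeq transcription start on GRCm38.p6, written 5′ to 3′ on the strand of the gene, with matches to 4 searched motifs in capitals. The Il1b window is chr2:129371140-129371389 on the minus strand, the Tnf window is chr17:35202008-35202257 on the minus strand, and the Il6 window is chr5:30012864-30013113 on the plus strand.
Il1b: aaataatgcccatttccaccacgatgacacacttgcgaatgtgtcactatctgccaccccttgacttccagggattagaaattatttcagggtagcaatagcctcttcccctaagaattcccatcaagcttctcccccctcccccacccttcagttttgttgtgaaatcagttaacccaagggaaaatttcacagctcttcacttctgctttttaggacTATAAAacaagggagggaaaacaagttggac
Tnf: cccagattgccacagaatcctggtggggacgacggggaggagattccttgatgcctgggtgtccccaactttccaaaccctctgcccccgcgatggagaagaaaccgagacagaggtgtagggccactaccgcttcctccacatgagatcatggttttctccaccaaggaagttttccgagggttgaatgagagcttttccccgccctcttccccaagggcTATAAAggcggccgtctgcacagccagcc
Il6: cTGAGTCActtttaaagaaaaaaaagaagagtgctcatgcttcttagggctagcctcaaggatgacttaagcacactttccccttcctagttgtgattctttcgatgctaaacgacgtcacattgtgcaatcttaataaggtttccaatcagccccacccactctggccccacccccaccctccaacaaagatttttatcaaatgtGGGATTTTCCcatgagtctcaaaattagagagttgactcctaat
The motifs, searched on both strands, were the AP-1 site TGANTCA, the NF-κB consensus, the cyclic AMP response element TGACGTCA and the TATA box TATAAA. Il1b and Tnf each had a TATA box, 31 to 26 and 29 to 24 bases before the start. Il6 had an AP-1 match 249 to 243 bases before the start and an NF-κB match at 44 to 35. Of 32536 promoter windows of the same length, 6.73% held an AP-1 match, 3.92% an NF-κB match, 1.56% a cyclic AMP response element and 12.3% a TATA box. Windows were found for 9 of the 10 genes. Among the rest, Il1a held an AP-1 match and a TATA box, and Il18 a TATA box on the minus strand. Il1rn held an AP-1 match in the window of its most upstream start and not in those of its other starts. Nlrp3 held an NF-κB match in its upstream window and not in its downstream one. A match describes these letters and is not evidence of a bound factor.

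Counts on genes per mouse ranged from 26120961 to 114857155 in PS2APP;Trem2wt and from 41567025 to 120569609 in PS2APP;Trem2ko, and the lowest count of any of the 10 genes in any mouse was 66, for Il1rn. Trem2 itself was at 818 to 1244 nRPKM (the authors' RPKM after a size factor) in PS2APP;Trem2wt and at 0.393 to 2.29 in PS2APP;Trem2ko. The 10 microglial markers summed to between 15920 and 19112 nRPKM in PS2APP;Trem2wt and between 16069 and 17772 in PS2APP;Trem2ko. Of the markers of other cells, 9 neutrophil genes varied most, from 15.0 to 265 in PS2APP;Trem2wt and from 0.149 to 46.3 in PS2APP;Trem2ko. Of these, Ly6g was at most 0.137 nRPKM in any mouse. S100a8 was at 1.56 to 54.4 in PS2APP;Trem2wt and 0.0322 to 7.60 in PS2APP;Trem2ko, and S100a9 at 3.96 to 62.7 and 0.0899 to 9.66. Monocyte markers (6 genes) summed to 2.41 to 21.7 and 3.09 to 19.2, border macrophage markers (8 genes) to 11.6 to 35.8 and 20.1 to 54.7, and T and NK cell markers (7 genes) to 0.708 to 4.63 and 0.550 to 7.35, in the same order. In bulk samples, fewer cells of a type and less RNA per cell cannot be told apart.

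The levels of the 10 genes spanned a wide range, with Il1a highest, then Gsdmd, Pycard and Casp1, and with Il1b, Il6, Tnf and Il1rn lowest. In PS2APP;Trem2wt microglia the order of mean nRPKM, a scale that corrects for gene length, was Il1a, Gsdmd, Pycard, Casp1, Il18, Nlrp3, Il1b, Il6, Tnf and Il1rn, and the order in PS2APP;Trem2ko was the same. The ranges of single PS2APP;Trem2wt mice overlapped between most neighbours in that order. They did not overlap between Pycard and Casp1, between Casp1 and Il18, or between Nlrp3 and Il1b. Il1a was at 61.4 ± 9.63 nRPKM (SD, n = 7) and Il1b at 4.37 ± 1.33 (SD, n = 7), so the transcript of the ligand that needs no caspase-1 was the more abundant in every mouse. The ratio of Il1a to Il1b within a mouse lay between 9.05 and 31.2.

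**Figure D1:**
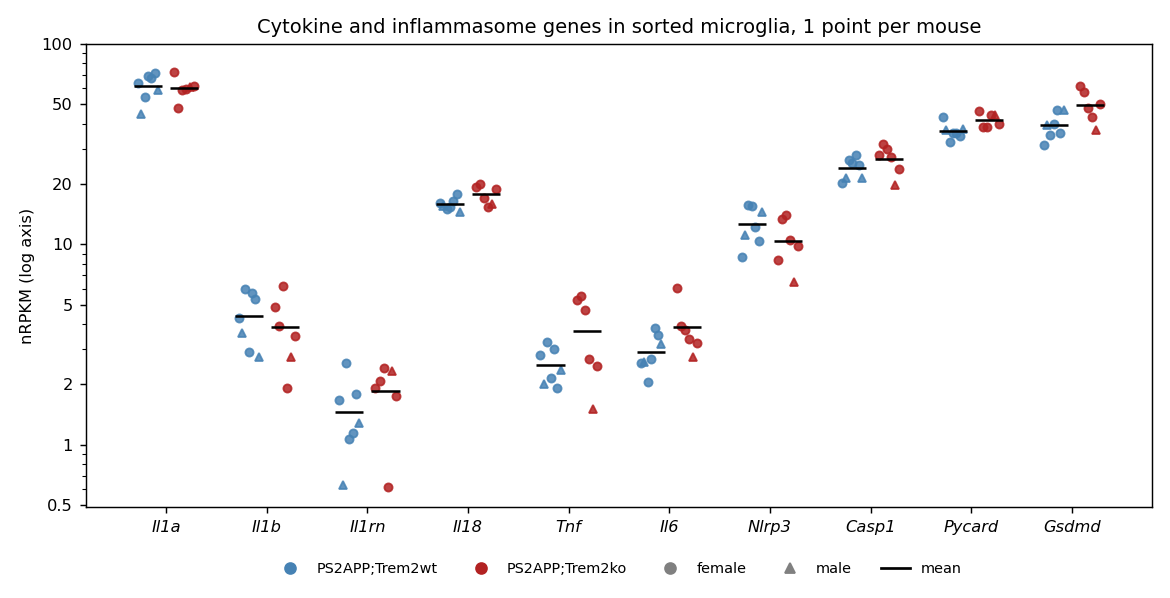
nRPKM (log axis) of the 10 genes in each PS2APP;Trem2wt (blue, n = 7) and PS2APP;Trem2ko (red, n = 6) mouse, with circles for females, triangles for males and bars for the means. The genotypes overlap for every gene, and Tnf spreads more widely among the PS2APP;Trem2ko mice (1.51 to 5.56) than among the PS2APP;Trem2wt mice (1.91 to 3.27).

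None of the 10 genes passed an adjusted p of 0.05 between genotypes (edgeR's quasi-likelihood test, Benjamini-Hochberg adjustment over 17086 genes), where 2.04% of all tested genes did, 0.503% higher and 1.53% lower in PS2APP;Trem2ko. The smallest adjusted p among them was 0.198, for Gsdmd. At an unadjusted p of 0.05, Il6, Pycard and Gsdmd were higher in PS2APP;Trem2ko and none was lower, against 7.29% of all tested genes higher and 7.56% lower. By voom+limma and by DESeq2, 0 of the 10 passed the adjusted threshold as well. No gene of the 10 had separate ranges of nRPKM in the 2 genotypes, while 1.62% of all tested genes did. Differences are given on the log2 scale as PS2APP;Trem2ko minus PS2APP;Trem2wt, from edgeR. The median of the 10 was 0.18, with 7 positive and 3 negative, and the median over all tested genes was 0.00. P-values here measure the spread between mice.

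**Figure D2:**
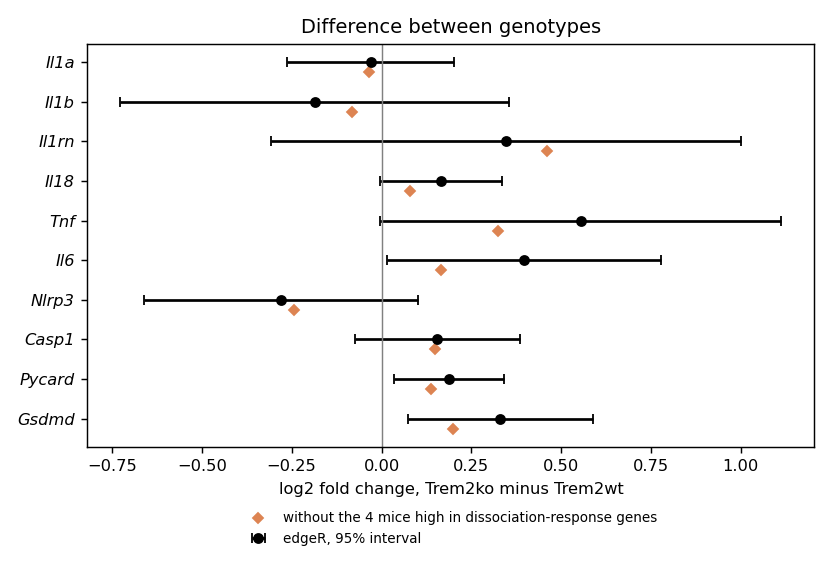
Log2 fold change (PS2APP;Trem2ko minus PS2APP;Trem2wt) of each gene by edgeR with its 95% interval (black), and the same without the 4 mice high in dissociation-response genes (orange). The intervals of Il6, Pycard and Gsdmd, not adjusted for the number of genes, lie above 0, and Tnf (0.55) and Il6 (0.40) move to 0.32 and 0.17 without those mice. Il1rn (0.35) moves the other way, to 0.46.

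Among the IL-1 ligands, Il1a was the closest to equal between genotypes. Its nRPKM ran from 44.6 through a median of 63.5 to 72.03 in PS2APP;Trem2wt and from 48.1 through 60.4 to 72.4 in PS2APP;Trem2ko. The difference was -0.03 log2 units (SE 0.11, adjusted p = 0.939), and the 95% interval of the fold was 0.834 to 1.15. Il1b ran from 2.75 through 4.30 to 5.99 in PS2APP;Trem2wt and from 1.91 through 3.70 to 6.20 in PS2APP;Trem2ko. The highest and the lowest mouse were both PS2APP;Trem2ko, and the difference was -0.19 log2 units (SE 0.25, adjusted p = 0.793; 95% interval of the fold, 0.604 to 1.28). Leaving out single mice moved the difference between -0.37 (without PS2APP;Trem2ko replicate 3) and -0.05 (without PS2APP;Trem2ko replicate 4), and it was also reduced, to between -0.11 and -0.09, without PS2APP;Trem2wt replicate 3 or 5 or PS2APP;Trem2ko replicate 5. Neutrophils express Il1b, and the part of neutrophil RNA in its level was not tested. The antisense transcript Il1bos overlaps Il1b by 1243 bases and was at most 0.385 nRPKM, and Gm14023, which overlaps Il1a by 8217 bases on the opposite strand, was between 2.36 and 5.96. Whether the counting used strand is not stated in the sources used here.

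Il1rn, the receptor antagonist, was the least expressed of the 10 and varied most in PS2APP;Trem2wt. It ran from 0.633 through 1.29 to 2.56 nRPKM in PS2APP;Trem2wt and from 0.619 through 2.0 to 2.41 in PS2APP;Trem2ko. In PS2APP;Trem2ko 5 mice lay between 1.76 and 2.41 and replicate 4 lay apart at 0.619. The difference was 0.35 log2 units (SE 0.31, adjusted p = 0.653), and the 95% interval of the fold, 0.809 to 2.0, leaves room for a rise of up to that size. The difference was 0.09 in females only, 0.22 without PS2APP;Trem2wt replicate 2, 0.54 without PS2APP;Trem2wt replicate 3 and 0.53 without PS2APP;Trem2ko replicate 4. Set against its agonist in the same mouse, the ratio of Il1rn to Il1b had a median of 0.368 in PS2APP;Trem2wt and 0.445 in PS2APP;Trem2ko, with single mice between 0.176 and 0.858. The ratio overlapped between genotypes and was not tested.

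Il18 was the steadiest of the cytokines. It ran from 14.5 through 15.5 to 17.9 nRPKM in PS2APP;Trem2wt and from 15.4 through 18.0 to 19.98 in PS2APP;Trem2ko, where 3 of 6 mice lay above every PS2APP;Trem2wt mouse. The difference was 0.16 log2 units (SE 0.08, adjusted p = 0.355). Tex12 and Bco2 overlap Il18 on the opposite strand, by 4507 and 355 bases, and Bco2 was at 29.7 to 43.7 nRPKM. The Il18 transcripts hold 1077 words of 50 bases, the read length, and 0% of them were found in any other gene. Reads lying within these transcripts can therefore be told apart from those of Tex12 and Bco2, even if strand was not used. Reads from introns were not examined.

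Tnf had the highest coefficient of variation of the 10 among PS2APP;Trem2ko mice, 45.6%, against 21.0% in PS2APP;Trem2wt. In PS2APP;Trem2wt it ran from 1.91 through 2.36 to 3.27 nRPKM. In PS2APP;Trem2ko, replicates 1, 2 and 3 were at 5.25, 5.56 and 4.69, above every PS2APP;Trem2wt mouse, and replicates 4, 5 and 6 were at 2.68, 1.51 and 2.46, of which replicate 5 was below every PS2APP;Trem2wt mouse. Replicate 5 was the only male PS2APP;Trem2ko mouse and was also the lowest of its group for Il6, Nlrp3, Casp1 and Gsdmd. The difference of Tnf was 0.55 log2 units (SE 0.26, adjusted p = 0.342; 95% interval of the fold, 0.996 to 2.16). Il6, the gp130 cytokine that signals through JAK and STAT3, ran from 2.06 through 2.67 to 3.84 nRPKM in PS2APP;Trem2wt and from 2.75 through 3.56 to 6.08 in PS2APP;Trem2ko. Only replicate 1 of PS2APP;Trem2ko was far above the PS2APP;Trem2wt range, at 6.08, and replicate 2 was just above it at 3.92. The difference of Il6 was 0.40 log2 units (SE 0.18, adjusted p = 0.315), and 0.22 without replicate 1 of PS2APP;Trem2ko.

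The sensor and the executors of the inflammasome differed in sign, and none passed the test. Nlrp3 ran from 8.67 through 12.3 to 15.7 nRPKM in PS2APP;Trem2wt and from 6.46 through 10.2 to 14.0 in PS2APP;Trem2ko, where 2 mice lay below every PS2APP;Trem2wt mouse. Its difference was -0.28 log2 units (SE 0.18, adjusted p = 0.506). Casp1, the protease, ran from 20.2 through 24.8 to 28.0 in PS2APP;Trem2wt and from 19.9 through 27.7 to 31.7 in PS2APP;Trem2ko, with a difference of 0.16 log2 units (SE 0.11, adjusted p = 0.545).

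Pycard, the adaptor, overlapped between genotypes through 1 PS2APP;Trem2wt mouse. It ran from 32.6 through 36.0 to 43.2 nRPKM, with 6 of 7 PS2APP;Trem2wt mice below the lowest PS2APP;Trem2ko mouse, and from 38.5 through 42.0 to 46.4 in PS2APP;Trem2ko. The exception was PS2APP;Trem2wt replicate 1, at 43.2. The difference was 0.19 log2 units (SE 0.07, adjusted p = 0.221). Of the 50-base words of its transcripts, 11.7% also occur in another gene, and Gm45205 overlaps it on the opposite strand, at no more than 0.308 nRPKM. Gsdmd, the pore protein, ran from 31.2 through 39.4 to 47.1 in PS2APP;Trem2wt and from 37.2 through 49.0 to 61.5 in PS2APP;Trem2ko, and 4 of the 6 exceeded the whole PS2APP;Trem2wt range. Its difference was 0.33 log2 units (SE 0.12, adjusted p = 0.198; 95% interval of the fold, 1.05 to 1.5). In females only, by edgeR, the difference was 0.46 for Gsdmd (adjusted p = 0.0931), 0.65 for Tnf (0.250) and 0.48 for Il6 (0.307). It was 0.17 for Casp1 (0.479) and -0.16 for Nlrp3 (0.738).

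Tissue handling can raise immediate early genes and cytokine transcripts, so a list of 15 such genes (Fos, Jun, Junb, Egr1, Atf3, Dusp1 and others) was read beside the 10. The mice fell into 2 clusters by the mean centred log2 level of this list, with PS2APP;Trem2ko replicates 1 and 2 at 0.87 and 0.92, PS2APP;Trem2wt replicates 3 and 5 at 0.76 and 0.60, and the other 9 mice between -0.60 and 0.06. Fos was at 27.1 and 11.7 nRPKM in the first pair and at 5.69 and 8.29 in the second. In the other 9 mice it was between 0.451 and 3.31. Atf3 did not separate these mice, at 17.7 in each of the first pair and at 28.4 and 21.1 in the second. The other 9 mice had Atf3 between 16.7 and 23.5 nRPKM. Junb, the list's most expressed gene, had a difference of 0.16 log2 units (SE 0.25, adjusted p = 0.816). The genotype comparison of Fos, the list's largest log2 fold change at 1.54 ± 0.86 (SE, adjusted p = 0.433), did not pass, and Atf3 had the smallest, -0.33 ± 0.09 (SE, adjusted p = 0.0774). Atf3 passed by DESeq2 (adjusted p = 0.0169) and not by voom+limma (0.0786).

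**Figure D3:**
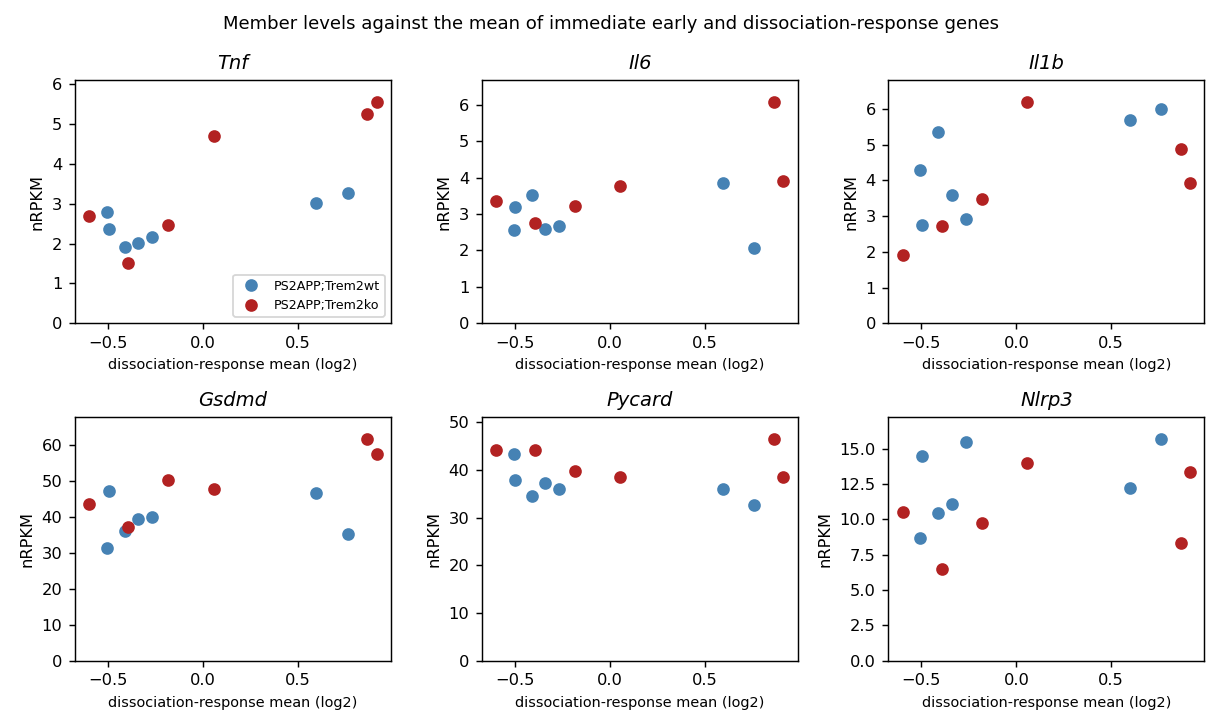
nRPKM of 6 of the genes (vertical axes, from 0) against the mean centred log2 level of the 15 dissociation-response genes in each mouse, with PS2APP;Trem2wt in blue (n = 7) and PS2APP;Trem2ko in red (n = 6). The 4 mice at the right of each panel stand apart from the other 9, and they include the PS2APP;Trem2ko mice with the highest Tnf (5.25 and 5.56). PS2APP;Trem2ko replicate 3, with Tnf at 4.69, is among the other 9.

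The 4 mice high in the dissociation-response list included the highest Tnf in each genotype (5.56 and 3.27). The highest Il6 (6.08 and 3.84) and the highest Casp1 (31.7 and 28.0) of each genotype were also among the 4. So was the highest Gsdmd in PS2APP;Trem2ko (61.5), while the highest Gsdmd in PS2APP;Trem2wt (47.1) was in another mouse. The lowest Il6 in PS2APP;Trem2wt (2.06) was among the 4. PS2APP;Trem2ko replicate 3, outside the 4 at a list mean of 0.06, had Tnf at 4.69, above every PS2APP;Trem2wt mouse. It also had the highest Il1b (6.20), Il1rn (2.41) and Nlrp3 (14.0) in PS2APP;Trem2ko. Without the 4 mice the log2 fold change was 0.32 for Tnf (adjusted p = 0.767), 0.17 for Il6 (0.777), 0.20 for Gsdmd (0.655) and 0.14 for Pycard (0.651) by edgeR over 9 mice. In that fit 0 of the 10 genes passed, beside 134 of 17195 tested genes, where 348 of 17086 passed over 13 mice. With the list mean as a covariate over all 13 mice, the values were 0.33 for Tnf, 0.31 for Il6, 0.27 for Gsdmd and 0.21 for Pycard. Il1b, at -0.19 over 13 mice with no covariate, was at -0.08 without the 4 mice and at -0.31 with the covariate. In the same order Nlrp3 was at -0.28, -0.24 and -0.32, and Il1rn at 0.35, 0.46 and 0.27. The part of the dissociation response in these differences was not tested. Because of the clusters, relations with the list mean were computed only within the 9 remaining mice, centred on genotype means, with exact permutation tests within genotype. The list mean spanned only -0.60 to 0.06 in these 9 mice, so the tests cannot show a relation between the clusters. In that set 0 of 10 relations passed after adjustment and 1 did before, Pycard, with r = -0.72 (exact p = 0.0274, adjusted 0.274) and Spearman's rho = -0.77 (exact p = 0.0465, adjusted 0.429). Il1b had a coefficient of similar size and opposite sign, r = 0.72 (exact p = 0.0986, adjusted 0.493; rho = 0.50, exact p = 0.267). Without the 2 mice farthest from the median of the list mean, r was -0.51 for Pycard and 0.08 for Il1b.

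The 10 genes were also compared with each other across the 13 mice, as 45 pairs of log2 CPM centred on genotype means. None of the 45 passed after adjustment and 6 had an unadjusted permutation p of 0.05 or less. The highest was Tnf with Casp1 (r = 0.74, permutation p = 0.0078, adjusted 0.158; rho = 0.74, permutation p = 0.0092, adjusted 0.159). Il6 with Gsdmd had r = 0.73 (permutation p = 0.0086, adjusted 0.158; rho = 0.72, permutation p = 0.0106), and Nlrp3 with Casp1 had r = 0.72 (permutation p = 0.0105, adjusted 0.158; rho = 0.76, permutation p = 0.0074). Il1b and Il1rn, agonist and antagonist, had r = 0.65 (permutation p = 0.0249, adjusted 0.224; rho = 0.64, permutation p = 0.0283). Pycard had negative coefficients with its partners, with r = -0.67 with Nlrp3 (permutation p = 0.0161, adjusted 0.182; rho = -0.69, permutation p = 0.0202) and r = -0.59 with Casp1 (permutation p = 0.0409, adjusted 0.307; rho = -0.58, permutation p = 0.0552). Without the 2 mice farthest from the median of the first gene, r was 0.68 for Tnf with Casp1, 0.66 for Il6 with Gsdmd, 0.52 for Nlrp3 with Casp1, 0.42 for Il1b with Il1rn, -0.61 for Nlrp3 with Pycard and -0.41 for Casp1 with Pycard. For Tnf with Casp1, r was 0.92 within PS2APP;Trem2ko and 0.31 within PS2APP;Trem2wt, and the difference between the genotypes was not tested. Within the 9 mice low in dissociation-response genes, none of the 45 passed after adjustment and 2 had an unadjusted exact p of 0.05 or less. The 2 were Nlrp3 with Gsdmd (r = 0.80, exact p = 0.0170, adjusted 0.578) and Nlrp3 with Casp1 (exact p = 0.0257, adjusted 0.578). There r was 0.60 for Tnf with Casp1, 0.48 for Il6 with Gsdmd, 0.80 for Nlrp3 with Casp1, 0.66 for Il1b with Il1rn, -0.55 for Nlrp3 with Pycard and -0.62 for Casp1 with Pycard.

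**Figure D4:**
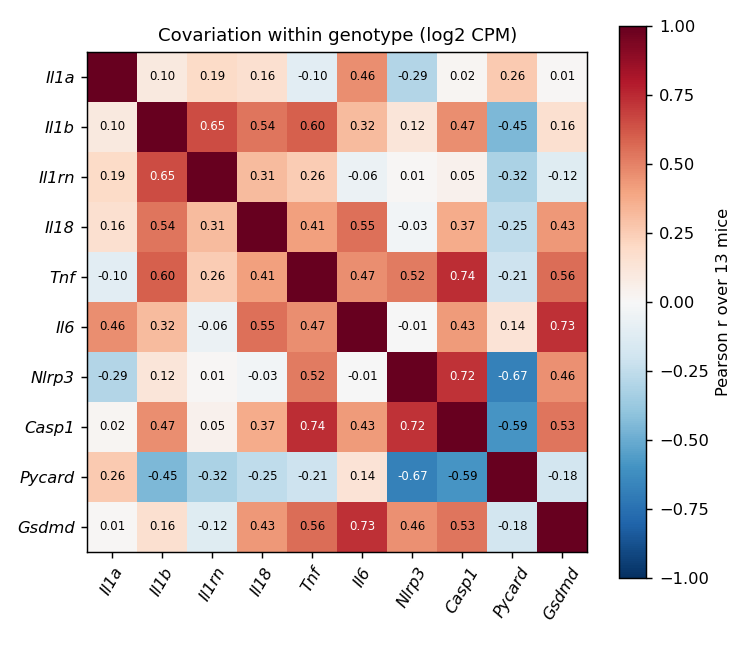
Pearson r of each pair of the 10 genes over 13 mice, on log2 CPM centred on the genotype means, from -1 (blue) to 1 (red). The strongest positive cells are Tnf with Casp1 (0.74), Il6 with Gsdmd (0.73) and Nlrp3 with Casp1 (0.72), and Pycard is negative with Nlrp3 (-0.67).

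A pool of 8189 named genes had a mean CPM of at least 10, leaving out names that start with Gm and a digit or end in Rik. For each gene the 2 genes with the most similar centred profile were picked out of this pool, as a description over 13 mice with no test. They were BC002059 (r = 0.92) and Vrk2 (0.89) for Il1a, Ifi27 (0.87) and Clic1 (0.86) for Il1b, Usp14 (0.90) and Rnh1 (0.89) for Il1rn, and Spag7 (0.89) and Ube2b (0.87) for Il18. For Tnf they were Hist1h1c (0.92) and Gpnmb (0.90), for Il6 Tmem199 (0.91) and Clk1 (0.86), and for Nlrp3 Med15 (0.90) and Sgpp1 (0.89). For Casp1 they were Plpp2 (0.95) and Ryk (0.91), for Pycard Evi5 (0.89) and Prr14l (0.88), and for Gsdmd Timm44 (0.91) and Sirt7 (0.90). The highest of so many coefficients over 13 mice can be large by chance, and no reference for chance was computed. The 13 mice include those high in dissociation-response genes.

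The pathways around the 10 genes were read as 6 lists of 81 genes, of which 73 were tested. Only 2 passed an adjusted p of 0.05, both higher in PS2APP;Trem2ko, and none was lower. These are 2.74% of the tested pathway genes, beside 2.04% of all tested genes in either direction and 0.503% in the higher direction. Chuk, the IκB kinase α subunit that starts non-canonical NF-κB signalling, was at 18.1 ± 2.20 nRPKM (SD, n = 7) in PS2APP;Trem2wt and at 23.7 ± 0.668 (SD, n = 6) in PS2APP;Trem2ko. All 6 PS2APP;Trem2ko mice exceeded the highest PS2APP;Trem2wt mouse, at 21.1, and the difference was 0.38 log2 units (SE 0.08, adjusted p = 0.0163). Naip5, the cytosolic receptor for bacterial flagellin that activates NLRC4, was at 7.20 ± 0.899 (SD, n = 7) and 9.53 ± 1.09 (SD, n = 6), with a difference of 0.40 log2 units (SE 0.09, adjusted p = 0.0316). Naip5 is uncertain, since 36.9% of its 50-base words occur in another gene, chiefly Naip6, and with single mice left out it passed only without PS2APP;Trem2wt replicate 2 or 7 or PS2APP;Trem2ko replicate 2 or 5 (adjusted p up to 0.0791 otherwise). Without the 4 mice high in dissociation-response genes neither passed (0.29 log2 units, adjusted p = 0.217 for Chuk and 0.34 log2 units, adjusted p = 0.277 for Naip5, by edgeR over 9 mice). In that fit 134 of 17195 tested genes passed, where 348 of 17086 passed over 13 mice. With the list mean as a covariate over all 13 mice, both passed (0.40 log2 units each).

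**Figure D5:**
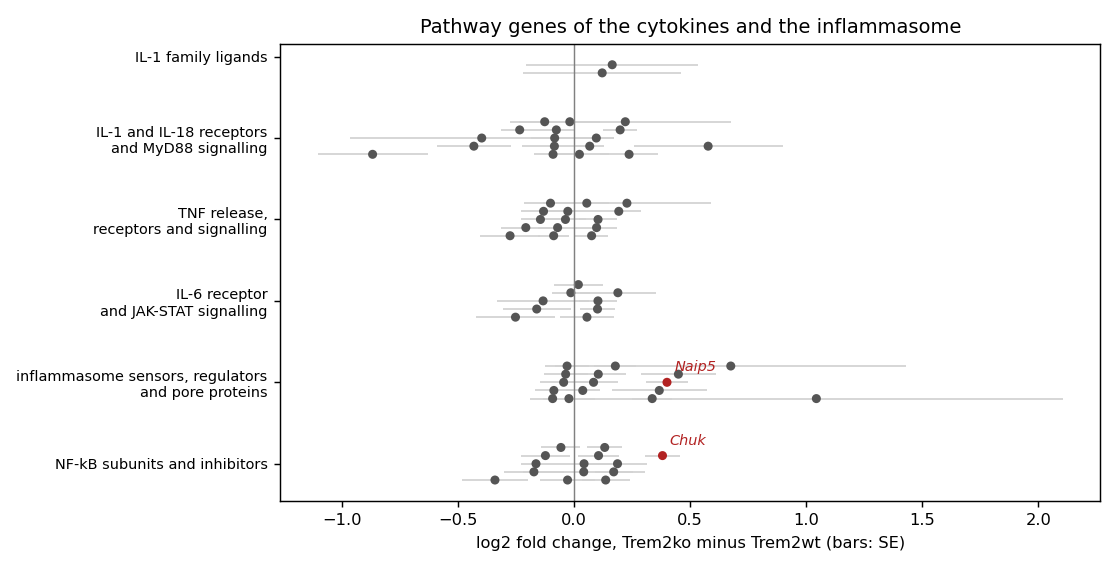
Log2 fold change (PS2APP;Trem2ko minus PS2APP;Trem2wt, bars SE) of the tested genes of 6 pathway lists, 1 point per gene, with genes past the adjusted threshold in red. Only Chuk (0.38) and Naip5 (0.40) are red, and most of the other genes lie close to 0.

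Of the IL-1 and IL-18 receptors and the MyD88 pathway, 17 of 18 genes were tested and none passed, 1 being higher and 3 lower at an unadjusted p of 0.05, where 7.29% of all tested genes were higher and 7.56% lower. Il1r1, the signalling receptor of IL-1, had the smallest log2 fold change, from 1.71 ± 0.526 nRPKM (SD, n = 7) in PS2APP;Trem2wt to 0.942 ± 0.347 (SD, n = 6) in PS2APP;Trem2ko, or -0.87 ± 0.24 (SE, adjusted p = 0.0774), with 4 of 6 PS2APP;Trem2ko mice below every PS2APP;Trem2wt mouse. It passed by voom+limma (adjusted p = 0.0404) and DESeq2 (0.00902). Il18rap, the accessory chain of the IL-18 receptor, had the largest at 0.58 ± 0.32 (SE, adjusted p = 0.427), and Myd88 was the most expressed at 38.9 and 40.8 nRPKM (log2 fold change 0.07, adjusted p = 0.654). Of the other IL-1 family ligands and binding proteins, 2 of 7 genes were tested and neither passed. They were Il18bp, the secreted inhibitor of IL-18, at 3.18 and 3.58 nRPKM (log2 fold change 0.16, adjusted p = 0.888), and the alarmin Il33 at 0.575 and 0.623 (0.12, adjusted p = 0.911).

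The TNF list had 15 of 15 genes tested and none passed. Tnfrsf1b, the second TNF receptor, was its most expressed gene at 116 and 106 nRPKM (log2 fold change -0.13, adjusted p = 0.583). Zfp36, which destabilises Tnf mRNA, had the largest log2 fold change, 0.23 ± 0.36 (SE, adjusted p = 0.826), and Tnip1, an NF-κB inhibitor, the smallest, -0.28 ± 0.13 (SE, adjusted p = 0.336). In the IL-6 receptor and JAK-STAT list 9 of 11 genes were tested and none passed, from Il6ra at -0.25 ± 0.17 (SE, adjusted p = 0.528) to the feedback inhibitor Socs3 at 0.19 ± 0.16 (SE, adjusted p = 0.641), with Jak1 the most expressed at 55.4 and 59.5 nRPKM (0.10, adjusted p = 0.567).

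Of the other inflammasome genes 16 of 16 were tested, and apart from Naip5 none passed. Mefv, which encodes pyrin, had the largest log2 fold change at 1.04 ± 1.06 (SE, adjusted p = 0.707), from values no higher than 0.447 nRPKM. Brcc3, the deubiquitinase of NLRP3, had the smallest at -0.09 ± 0.10 (SE, adjusted p = 0.712), and Txnip was the most expressed at 78.6 and 83.5 nRPKM (0.08, adjusted p = 0.765). Among the NF-κB subunits and inhibitors 14 of 14 were tested, and apart from Chuk none passed. Nfkb2, the substrate of the kinase encoded by Chuk, had the smallest log2 fold change at -0.34 ± 0.14 (SE, adjusted p = 0.260), and Rela was the most expressed at 47.7 and 42.7 nRPKM (-0.16 ± 0.06, adjusted p = 0.229). The median log2 fold changes of the 6 lists lay between -0.08 and 0.14, against 0.00 over all tested genes.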

How the data were processed

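RNA-Seq of sorted microglia was analysed, 1 library per mouse, with groups taken from the genotype labels. Per the study's methods, libraries were sequenced as single-end 50-base reads, aligned to GRCm38 with GSNAP and counted per gene. The authors deposited a count per gene, not normalized, and an nRPKM, that is, RPKM after a size-factor adjustment. Counts were used for tests and the deposited RPKM values for levels. The names of 52403 of 52636 genes came from the reference table. Coordinates and overlaps come from GENCODE M21 on GRCm38 and promoters from RefSeq on GRCm38.p6.

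Counts were filtered with filterByExpr, scaled by TMM and tested with glmQLFit and glmQLFTest (edgeR 4.0.16, R 4.3.3), with no covariate. The authors used voom and limma, which is an alternative here (limma 3.58.1, DESeq2 1.42.0). The limit of detection was 3 counts, or 0.0249 to 0.115 CPM, and covers counting error only. Standard errors are the log2 fold change divided by the square root of F, and 95% intervals use the fit's total degrees of freedom. No 2 mice of a genotype had counts within sampling noise (36 pairs, chi-square at least 19.6 times its degrees of freedom). Correlations used permutations within genotype in Python 3.11.15, 100000 of them, or all 2880 within the 9 mice. The relation with dissociation-response genes had been planned over all 13 mice and was replaced because the mice form clusters. The edgeR, voom+limma, DESeq2 and limma fits without a covariate, and the random permutations over 13 mice, were checked on simulated data. The covariate fits and the exact permutations within the 9 mice were not.

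The 10 genes and all lists were chosen with earlier results of these data known. Named beside them are pathway genes past the threshold, the largest and smallest log2 fold change and the highest level in each list, and the 2 most alike genes of each of the 10. Alternatives were voom+limma, DESeq2, RLE scaling, no filter, 10 counts in 6 mice, limma on log2(nRPKM + 0.1) and log2(nRPKM + 1), a sex covariate, the females alone, a 2-fold threshold and leaving out each mouse. All settings on dissociation-response genes, and the pairs within the 9 mice, were added after seeing the data.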

Additional observations from a re-analysis of the deposited data

Results flagged for a closer look

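In PS2APP;Trem2ko, Il1rn was at 0.619 nRPKM in replicate 4, and the gap to the next mouse was larger relative to the range of the 6 mice than Dixon's 95% critical value allows. It was the only such value among the 20 sets of values checked, 10 genes in each genotype, where chance flags about 1 in 20. Il1b in the same mouse was 1.91 nRPKM, the lowest of all 13 mice, and its dissociation-response list mean, -0.60, was also the lowest. Whether these are connected was not tested.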

How the results depend on the processing

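The count of the 10 genes that passed stayed at 0 under every alternative run, each mouse left out included, with a smallest adjusted p of 0.0931. Of 240 recomputed log2 fold changes, 237 kept their sign and side of the threshold, and the other 3 were Il1a, which turned to 0.030, 0.00065 and 0.011 without PS2APP;Trem2ko replicate 2, PS2APP;Trem2wt replicate 4 and PS2APP;Trem2wt replicate 6 (-0.10 to 0.03 with each mouse left out). The pathway lists had 2 genes past the threshold, 4 by DESeq2 (Il1r1 and Ninj1 added), 0 without the 4 mice high in dissociation-response genes, 2 with that list's mean as a covariate and 1 to 3 with each mouse left out. Chuk passed in all 13 of those fits and Naip5 in 4. Over all genes 348 passed, 851 by DESeq2, 134 without the 4 mice, 402 with the covariate, 127 with a 2-fold threshold and 244 to 357 with each mouse left out. Of the 348, 24.7% were higher in PS2APP;Trem2ko, beside 26.2% under RLE scaling, 38.2% by DESeq2, 24.4% with the covariate and 11.2% without the 4 mice. Correlation counts stayed at 0 throughout. Those with the dissociation-response list were taken within the 9 low mice only, and so cannot show a relation between the clusters. No paired analysis was possible because the labels carry no number shared between genotypes, although the study handled mice of both genotypes in pairs. The lowest count of the 10 genes was 66, and with 6 and 7 mice the intervals leave folds of up to 2.16 open for Tnf.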
